A study of Rattus norvegicus with 32 samples.

Results

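The 16 libraries described here are the dendrite samples of single rat hippocampal neurons, chosen by the compartment named in their titles, out of 32 libraries in all. Each of the 16 neurons gave a dendrite tube and a separate soma tube, and the soma libraries are not compared here. The neurons came from wildtype Sprague Dawley embryos of embryonic day 18, were labelled pyramidal neurons, and had grown for 15 days in several cultures harvested on several days. Dendrites were drawn into a micropipette of their own, their polyadenylated RNA went through 3 rounds of aRNA amplification (linear amplification by in vitro transcription), and stranded libraries were read as 75 bp pairs. Which neuron came from which culture is not given, so the spread below is between single neurons and between cultures together, and it includes the amplification. A dendrite sample is the part of 1 arbor that the pipette took, and less dendrite cannot be told apart from less RNA per dendrite. The libraries are called by the neuron number in their titles, from 7 to 28.

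Dendrites hold messenger RNAs far from the nucleus, where ribosomes, RNA-binding proteins and motor-driven granules allow proteins to be made close to synapses. Transcripts for cytoskeletal proteins, translation machinery, mitochondrial enzymes, calmodulins and postsynaptic scaffolds are well known there. Map1b encodes a microtubule-associated protein, Dlg4 the postsynaptic scaffold PSD-95, and Ddn the dendrite-enriched protein dendrin.

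All 3 of these markers had counts in all 16 libraries. Levels are given as CPM, a gene's counts scaled to a library total of 1000000 gene counts, without a correction for transcript length, so the order of genes by CPM is an order of reads and not of molecules. Map1b lay at 1744 CPM in the lowest library, 6183 in the median and 15343 in the highest. Dlg4 lay at 66.5, 325 and 2732 CPM, and Ddn at 6.97, 236 and 456 CPM. The spread of a gene is the SD over the 16 libraries of its log2 CPM, with a leave-one-library-out (jackknife) standard error. It was 0.78 ± 0.16 for Map1b, 1.68 ± 0.23 for Dlg4 and 1.74 ± 0.46 for Ddn, whose lowest value came from library 20. Without library 20 the SD of Ddn was 1.34.

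Of the 12 pyramidal neuron markers with a row, 2 had counts in all 16 libraries. These were Neurod6, a transcription factor of excitatory forebrain neurons, at 5.11, 581 and 3767 CPM (lowest, median and highest), and Bcl11b, a transcription factor of hippocampal and deep cortical neurons, at 25.1, 283 and 2988 CPM. The kinase gene Camk2a was at 0 in 10 libraries. The vesicular glutamate transporter Slc17a7 was at 0 in 6, and its relative Slc17a6 at 0 in 1. The summed level of the inhibitory neuron markers ranged from 10.9 to 5617 CPM with a median of 373, and none of the 16 markers had counts in every library. Gad1, the GABA-synthesising enzyme, was at 0 in 4 libraries, had a median of 40.0 CPM and reached 1833 CPM in library 7. Astrocyte markers summed to 120 to 3301 CPM, and 1 of 17, the metallothionein Mt3, was in every library. Microglial markers summed to 0 to 27.9 CPM, with 8 of 13, Aif1 and Cx3cr1 among them, at 0 in all 16. Oligodendrocyte markers summed to 0.232 to 75.6 CPM, precursor markers to 9.76 to 218 CPM with 1 of 7, Cspg5, in every library, endothelial, mural and fibroblast markers to 0.260 to 796 CPM, and dividing progenitor markers to 0.232 to 540 CPM. For comparison, 9.01% of all gene rows had counts in all 16 libraries, and these marker lists are small. The part of other cells in the values below was not tested.

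Gene counts per library ran from 229149 in library 25 to 24439768 in library 27, with a mean of 10292500 ± 8212640 (SD, n = 16). The number of genes with 1 or more counts ran from 4224 in library 14 to 8051 in library 28, with a median of 6111. Depth did not order these numbers. Library 25, the shallowest, had 5700 genes, while library 14 had 4224 from 12332484 counts. With every library thinned at random to 229149 counts, the number of genes ran from 2407 in library 20 to 5700 in library 25.

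**Figure D1:**
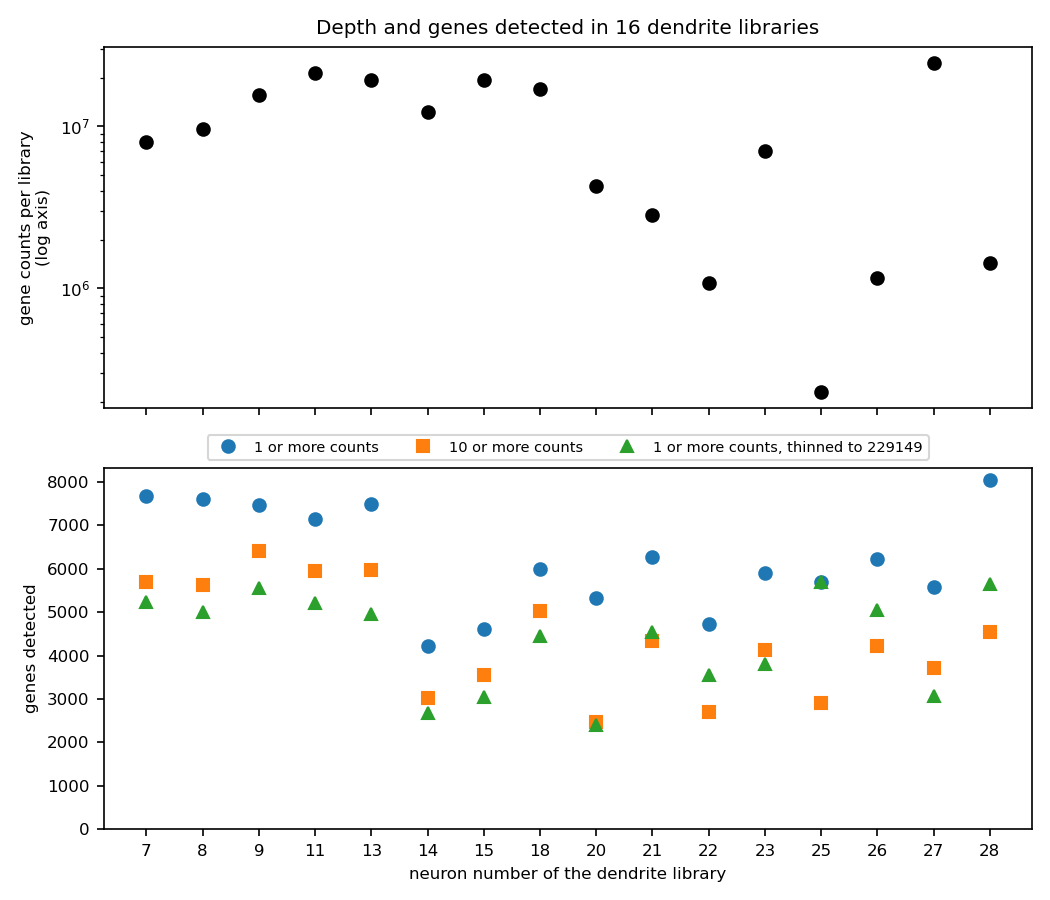
Gene counts (upper panel, log axis) and the number of genes detected (lower panel) in each of the 16 dendrite libraries, at 1 or more counts, at 10 or more counts, and after thinning to 229149 counts. Library 14 has the fewest genes at 1 or more counts (4224), and library 20 the fewest after thinning (2407).

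Library 20 stood apart from the rest. Its rank correlation with library 13 over 6189 genes was 0.791, while the other 119 pairs lay between 0.369 and 0.582. All 1821 genes with 2000 or more counts in library 13 also had a count in library 20, at a median of 0.541% of the count in library 13, while the other libraries held a count for 1386 to 1782 of them. Of 82 genes with 500 or more counts in library 13 and none in at least 11 of the other 14 libraries, 79 (96.3%) had a count in library 20. The same measure was 88.1% (37 of 42 genes) from library 8 to library 7, and its median over all 120 pairs was 21.1%. Spike-ins made up 4.33% of the counts of library 20, against a median of 0.400%. Its TMM-scaled library size, which weights the bulk of genes rather than the few highest, was 541604 against a total of 4305333. Most counts of the core, spreads and class values that rest on library 20 are given with and without it. Genes whose lowest or highest value came from it are treated after the classes or where they are named. What set it apart was not tested.

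A total of 1552 genes had 1 or more counts in all 16 libraries and are called the core. They were 9.01% of the 17216 gene rows, 12973 of which had a count in some dendrite library. Asking for 10 or more counts in every library left 755 genes, called the strict core, which were 4.39% of the rows. Asking for 5 or more counts left 962, and asking for 1 CPM or more left 995 (5.78%). Without library 20 the core held 1621 genes, the strict core 859, and 1086 genes had 1 CPM or more throughout. Library 14 had the largest effect, since 1832 genes were present in the other 15. Core genes held a median of 72.2% of a library's gene counts, with 62.4% in the lowest library and 80.5% in the highest, and the strict core held 45.8% to 68.7%. Tuba1a, an alpha-tubulin, lay at 9739 CPM in the lowest library, 52543 in the median and 121354 in the highest.

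Outside the core, 826 genes were missing from a single library. The missing library was 14 for 280 of them, 15 for 127, 22 for 117, 27 for 70 and 20 for 69. At the other end, 2101 genes had counts in 1 library only. Their median count there was 1, although 117 of them had 100 or more counts.

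**Figure D2:**
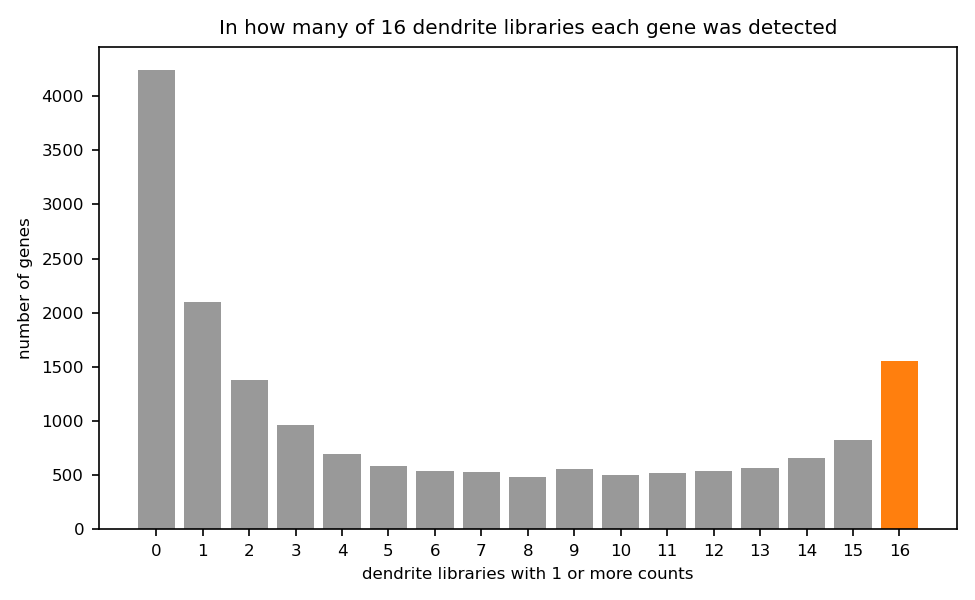
Number of genes (vertical axis) by the number of dendrite libraries, out of 16, in which the gene had 1 or more counts. The 1552 genes in all 16 are in orange, 826 were in 15, and the bars rise again towards 1 library (2101 genes) and 0 libraries (4243 genes).

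Membership of the core followed the level. All 92 genes with a median of 1000 CPM or more were core genes, as were 890 of 1079 (82.5%) at 100 to 1000 CPM, 523 of 1920 (27.2%) at 10 to 100 CPM and 47 of 9882 (0.476%) below 10 CPM. For the strict core the counts were 92, 578 (53.6%), 85 (4.43%) and 0. Of all 1171 genes at 100 CPM or more 982 were core (83.9%), and the share of each class at that level is set against this after the classes.

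Ribosomal proteins gave the core its largest class. Of 49 genes for the large subunit 48 were core and 40 strict core, and of 34 for the small subunit 32 were core and 29 strict core. All those with a median of 100 CPM or more, 35 large and 27 small, were core genes. Rps16 lay at 1076 CPM in library 9, at a median of 2611 CPM and at 8192 CPM in library 20. Rpl23 lay at 163, 1344 and 7659 CPM, Rpl13a at 599, 1173 and 10950 CPM, and Rpsa, which also serves as a laminin receptor, at 191, 1358 and 3528 CPM. Library 20 was the highest library for 27 of the 48 large and 21 of the 32 small subunit core genes. The large subunit genes together took 1.19% to 7.84% of the gene counts with a median of 1.81%, and the small subunit genes 0.608% to 7.29% with a median of 1.65%. Without library 20 the highest shares were 3.01% and 2.44%.

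The 3 ribosomal protein genes outside the core were Rpl37a, Rps6 and Rps27l, with medians of 0.122, 0.781 and 0.253 CPM. Low values were also found inside the core for Rps9 (2.83, 5.40 and 18.6 CPM) and Rpl7a (1.41, 6.60 and 78.6 CPM), and the pseudogene row Rpl37a-ps1 was a core member at 0.295, 2.44 and 9.39 CPM. Ribosomal protein genes have many near-identical processed copies, and how reads that match several copies were counted is not given, so the level of any single one of them is uncertain.

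Ribosomal protein transcripts are known for a pyrimidine tract at their 5′ end through which their translation is regulated, and the annotated start sites of the core members were examined for it. The sequences are RefSeq's, build GRCr8, which is not the build of the counts. A start was matched for 64 of the 80 core ribosomal protein genes (80.0%), taking the first listed start of a gene. In the 21 bases centred on the start, on the sense strand, 37 of the 64 (57.8%) held at least 1 of 4 words, CTTTT or else CTTTC or else CTCTT or else CCTTT, which can overlap. The share was 7.27% of all 27457 promoters in the table and 6.10% of the matched genes with a count in any dendrite library. It was 8.52% (108) of the 1268 matched core genes, which include these 37. Stretches of 30 bases, 15 before the start and 15 from it, are shown for 4 core members with the words and 2 without them, picked as examples after their sequences were seen, with each word found in capitals.
Rpl12 (chr3:36661925-36661954, plus strand): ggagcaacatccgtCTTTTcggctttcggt
Rpl19 (chr10:83519049-83519078, plus strand): cgcgaccagcaagCTCTTTCCTTTCgctgc
Rpl31 (chr9:49143096-49143125, plus strand): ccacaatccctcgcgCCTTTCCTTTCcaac
Rps7 (chr6:50999431-50999460, minus strand): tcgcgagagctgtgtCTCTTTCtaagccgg
Rps16 (chr1:92770643-92770672, plus strand): cctggaaaatcggtcggggtggccccaagc
Rpl11 (chr5:153560788-153560817, minus strand): ggggacttgaagcttgtttggtgctgggga
These stretches belonged to genes with an SD of log2 CPM of 0.63 (Rpl12), 1.20 (Rpl19), 1.16 (Rpl31), 1.09 (Rps7), 0.72 (Rps16) and 1.08 (Rpl11). Over the 300 bases around the start, the matched core genes had a median GC content of 62.0% and 24 CG pairs, against 60.0% and 19 for genes with a count in any dendrite library and 52.3% and 7 over all promoters of the table. The word GGGCGG, on either strand, stood in 71.2% of the core's promoters, in 57.4% of those of genes seen in any library and in 34.9% of all. At a median of 100 to 1000 CPM, core genes and genes missing somewhere were close in these measures. Their median GC content was 61.7% and 62.2%, both had 24 CG pairs, and the word stood in 70.8% and 66.7%.

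Translation factors had 28 of 43 members in the core. The elongation factor subunit Eef1b2 lay at 306, 1032 and 2878 CPM, and Eef2, which moves the ribosome along the message, at 232, 666 and 2476 CPM. The initiation factor Eif1 varied little, at 139, 267 and 513 CPM. Its relative Eif1b lay at 0.0811 CPM in library 14, at a median of 390 CPM and at 6381 CPM in library 20, and Eif4a2, an RNA helicase of initiation, at 0.324, 581 and 3374 CPM. Eif4ebp2, an inhibitor of cap-dependent initiation, was at 0 in 4 libraries and reached 1450 CPM in library 15.

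Respiratory complexes II to V, ATP synthase among them, came close to the ribosome in coverage. Of 58 genes listed for them, 41 had a row. Of these 41, 40 were core and 31 strict core, the exception being Atp5f1 at a median of 0.310 CPM. Cox7c, a cytochrome c oxidase subunit, lay at 740, 2446 and 8844 CPM, and Atp5b, the catalytic beta subunit of ATP synthase, at 209, 2235 and 4897 CPM. The complex I list had 25 of 34 members in the core but 11 in the strict core. Ndufa4, which was counted in that list, had a median of 974 CPM and a highest value of 2088 CPM. Ndufb3 reached 3593 CPM with a median of 742 CPM and was at 0 in library 14. Glycolysis had 13 of 18 members in the core, led by Ldha, lactate dehydrogenase A, at 79.4, 1333 and 2735 CPM. The V-ATPase, which acidifies vesicles and lysosomes, had 14 of 17, and the carriers and import proteins of mitochondria had 14 of 22, led by the ADP/ATP carrier Slc25a4 at 1493, 3272 and 9000 CPM.

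Cytoskeletal genes reached the highest median of all, that of Tuba1a. Of 16 tubulins, 10 were core genes. Tubb2a lay at 2527, 5408 and 12703 CPM, whereas Tubb2b, a closely related beta-tubulin, lay at 289 CPM in library 11, at a median of 10836 CPM and at 54613 CPM in library 8. Tubulin genes are similar in sequence, and reads may be divided between them. Microtubule-associated proteins and stathmins had 24 of 33 members in the core, and all 18 of them with a median of 100 CPM or more. Stmn2, a microtubule-destabilising stathmin, lay at 3202, 9064 and 13492 CPM, and Mapt, the gene of tau, at 1815, 4383 and 6647 CPM. Of 45 actin cytoskeleton genes 28 were core, with Tmsb4x, the actin-monomer binder thymosin beta 4, at 622, 3842 and 8505 CPM. Kinesin and dynein motors had 18 of 33. Among the neurofilaments Nefm ranged from 3.03 CPM in library 27 to 4666 CPM in library 9 and Nefl from 1.14 CPM in library 23 to 3077 CPM in library 14.

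All 6 genes of the 14-3-3 family, adaptors that bind phosphorylated proteins, were in the strict core. Ywhag lay at 1219, 4266 and 7872 CPM and Ywhae at 614, 3793 and 8090 CPM. Chaperones had 25 of 35 members in the core, ubiquitin and its enzymes 22 of 31, and the proteasome 24 of 38. Hsp90ab1 lay at 940, 1743 and 3389 CPM, and Skp1, a subunit of SCF ubiquitin ligases, at 516, 1585 and 6546 CPM.

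Genes that were described earlier as dendritic, a list compiled from textbook knowledge, had 16 of 35 members in the core and 10 in the strict core. Besides Map1b, Mapt, Dlg4 and Ddn these included the calmodulin gene Calm2 (1292, 2629 and 5435 CPM). All 13 members with a median of 100 CPM or more were core genes. Map2 had a median of 12.1 CPM and was at 0 in 2 libraries, the fragile X gene Fmr1 18.9 CPM and 2, and the scaffold gene Homer1 18.0 CPM and 3. Arc was at 0 in 7 libraries, Camk2a in 10 and Grin2b in 14. The level that a count of 0 allows (3 counts of a library's total, counting error only) ran from 0.123 CPM in library 27 to 13.1 CPM in library 25.

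Membrane receptors and channels had smaller shares. Of 30 glutamate receptor genes and auxiliary subunits 3 were core, and of 41 voltage-gated channel genes 4 were (9.76%), which is near the 9.01% of all gene rows. Their levels were low, with 2 members of each list at a median of 100 CPM or more, all 4 of them core genes. The AMPA receptor subunit Gria2 lay at 0.405 CPM in library 14, at a median of 531 CPM and at 1522 CPM in library 23. The sodium channel genes Scn3b and Scn2a lay at 0.697, 428 and 1712 CPM and at 1.86, 170 and 805 CPM, with the lowest values in library 20. None of the 4 channel genes was in the strict core. Among GABA receptor and inhibitory postsynapse genes 7 of 21 were core, with the receptor subunit Gabra5 at 8.59, 1011 and 3040 CPM. Postsynaptic density scaffolds had 10 of 34 and immediate early genes 5 of 32.

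Synaptic vesicle and release genes had 21 of 59 members in the core. The SNARE gene Snap25 lay at 41.8, 1124 and 5114 CPM. Other members of the same list were absent more often, with Syp and Syt1 at 0 in 11 libraries each. Dense core vesicle genes had 9 of 22, from Cpe, a prohormone-processing carboxypeptidase at 1486, 5659 and 17457 CPM, to Bdnf, a neurotrophin at 0.164, 105 and 1773 CPM. RNA granule and transport proteins had 14 of 42, splicing factors and hnRNPs 19 of 50, ER and early secretion 25 of 51, lysosome and endosome 15 of 34, chromatin and transcription 23 of 47, and calcium signalling 18 of 39. Antioxidant genes had 11 of 21, growth cone membrane proteins 8 of 19, imprinted genes 5 of 15, amyloid family 3 of 11, the sodium pump 3 of 6, intermediate filaments 3 of 7 and long noncoding RNAs 0 of 3. In all, the 37 lists held 570 of the core genes, and 982 core genes were in no list.

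Set against level, the classes differed less. Among the 36 lists with a member at a median of 100 CPM or more, all such members were core in 19 lists, and in a further 12 the share was above the 83.9% of all genes at that level. In 5 lists it was below, namely the sodium pump (2 of 3), splicing factors and hnRNPs (11 of 15), immediate early genes (4 of 5), imprinted genes (4 of 5) and ER and early secretion (19 of 23). Many lists have few members at this level, so a single gene moves their share.

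Library 20 set an end of the range for several of the genes above. Without it the lowest values were 144 CPM for Neurod6, 48.1 for Bcl11b, 1335 for Atp5b, 567 for Ldha, 1207 for Ywhae and 148 for Eif1. Those of the membrane and release genes became 2.84 CPM for Scn3b, 22.4 for Scn2a, 342 for Gabra5 and 217 for Snap25. The highest values became 5004 CPM for Rps16, 3422 for Rpl13a, 1754 for Eef2, 1540 for Eif1b, 12229 for Cpe, 678 for Hspa8 and 17.5 for Rps9. By ratio, the low ends of Gabra5, Neurod6 and Scn2a moved most among these. Fmr1 was at 0 in 1 library without it.

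The median SD of log2 CPM was 2.11 over the core (jackknife SE 0.31), with quartiles of 1.59 and 2.70. Without library 20 it was 1.83. Over the 6189 genes with a count in at least 8 libraries it was 3.21 (SE 0.17). Since a gene at 0 in some libraries has to vary, the lower value of the core is a consequence of how the core was chosen. In the strict core the median SD was 1.63, and 1.30 without library 20. The median ratio of its highest to its lowest library was 75.5, and 25.5 without library 20. By level, the median SD was 1.06 for genes at a median of 1000 CPM or more, 2.17 at 100 to 1000 CPM, 3.33 at 10 to 100 CPM and 3.34 below. Without library 20 these were 0.84, 1.88, 3.28 and 3.39. Library 20 was the lowest library for 529 of the 1552 core genes, followed by library 14 for 195 and library 27 for 173.

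The spike-ins, synthetic RNAs of 1 common mixture, served as a technical reference. When they were added is not given, so they cover the steps from there on. Of the 92 spike-ins 41 had counts in some dendrite library and 7 in all 16. Spread of a spike-in was the SD of its log2 share of the spike-in counts. ERCC-00130 made up 5.07% of the spike-in counts in the lowest library, 22.3% in the median and 58.4% in the highest, and ERCC-00096 4.72%, 12.6% and 24.6%. Over the 7 spike-ins the SD ran from 0.60 (ERCC-00096) to 1.95 (ERCC-00113) with a median of 1.11 (SE 0.34).

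The 7 had mean counts between 3151 and 19574. In that range lay 621 genes, 551 of them (88.7%) core genes, with a median SD of 1.94 and quartiles of 1.49 and 2.85. Of these genes 74 had an SD below the median spike-in and 310 an SD above the most variable one. Both counts include library 20 and were not made without it. Without library 20 the median SD of the core fell from 2.11 to 1.83. That of the spike-ins with a count in every remaining library was 1.15, against 1.11. At lower counts the spike-ins varied as much as the genes. At mean counts of 100 to 1000 the median SD was 3.42 for 3772 genes and 3.60 for 14 spike-ins, and a gene was at 0 in a median of 4 libraries and a spike-in in 7.5. At 1000 to 10000 counts it was 2.96 for 1829 genes and 1.37 for 6 spike-ins, and at 10000 or more 1.26 for 129 genes and 1.35 for 2. The totals of the spike-ins were far smaller than those of the genes, from 1110 to 212662 counts. Genes and spike-ins were therefore matched on mean raw count and not on share.

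**Figure D3:**
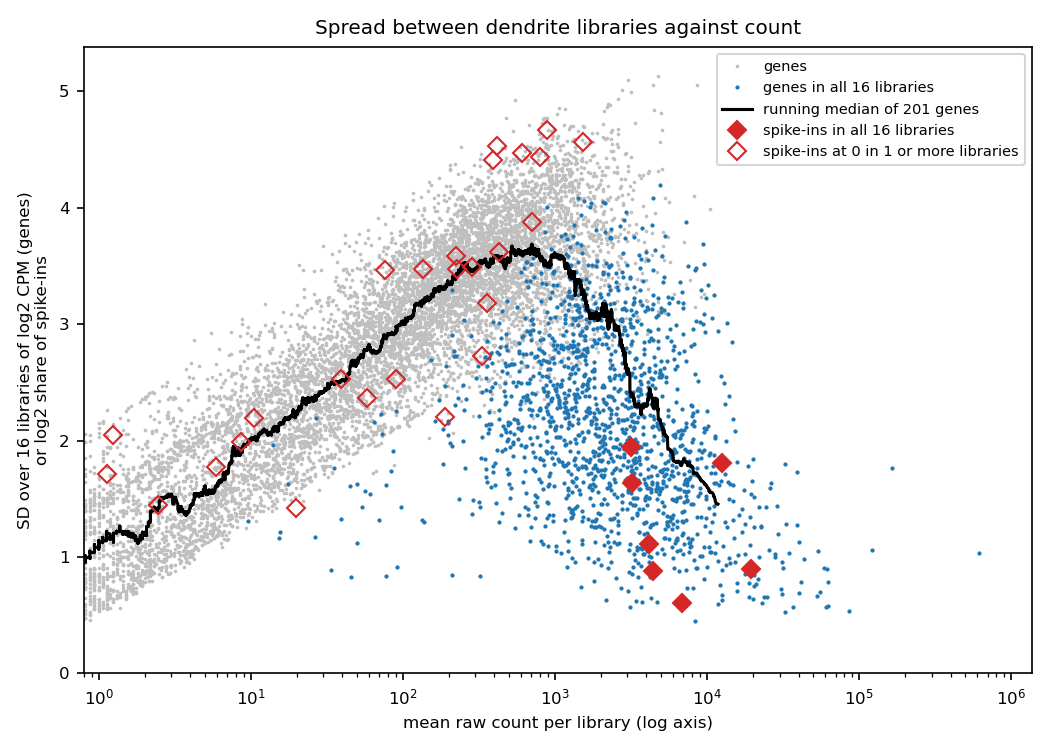
SD over the 16 dendrite libraries of log2 CPM (genes) or of the log2 share of spike-in counts (diamonds) against the mean raw count per library on a log axis, with a running median over neighbouring genes ordered by mean count. The 7 spike-ins in all 16 libraries (filled) lie between 0.60 and 1.95, and spike-ins at 0 in some libraries (open) lie among the genes of the same count.

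Among the genes of smallest spread were Calm2 (0.53 ± 0.10), Stmn2 (0.53 ± 0.14), Eif1, Rtn1, Mapt, Tubb2a, Akr1a1, Ttc3 and Hspa8, all at or under 0.61. Rtn1, an ER-shaping reticulon, lay at 3017, 5808 and 10794 CPM, and Hspa8, the constitutive Hsc70 chaperone, at 208, 379 and 784 CPM. These SDs depended on how library 20 was scaled. With TMM scaling of all 16 libraries they were 0.85 to 1.24, and with TMM but without library 20 they were 0.60 to 0.86. Without library 20 and with the totals as scale they were 0.53 to 0.63.

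The spread of a gene was also set against its level, as its SD minus the running median over the genes nearest to it in mean log2 CPM. Among the genes farthest above this trend in the core were Hnrnpm, Atp2b1, Serbp1, Eif1b, Ube2v2, Ncald, Nr2f1, Mafg and Ptpra, by 1.47 to 1.84. Hnrnpm, a splicing factor, lay at 0.285 CPM in library 23, at a median of 486 CPM and at 3305 CPM in library 8. Nr2f1, a transcription factor that patterns the cortex and hippocampus, lay at 1.37, 365 and 2157 CPM and had an SD of 3.88 ± 0.38. Serbp1, an mRNA-binding protein, lay at 0.246, 672 and 2250 CPM, and Atp2b1, a plasma membrane calcium pump, at 0.208, 327 and 3513 CPM. The SDs of these 9 genes were 3.25 to 4.08 with library totals and 3.15 to 3.91 with TMM. Single libraries carried some of these values. The SD of Ube2v2 fell from 3.25 to 1.90 without library 15 and that of Ncald from 3.36 to 2.22 without library 18, and Eif1b had 2.48 without library 14.

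Nr2f1 lay under 10% of its own median in 7 libraries and Mafg, a small transcription factor that pairs with Nrf2, in 6. For the other 7 genes it was 2 to 4 libraries, and for Calm2 it was 0.

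The largest SDs in the core, whatever the level, belonged to Mrps9 (4.20 ± 0.67), Mafg, Ppig, Ociad2, Asnsd1, Srp9, Sec11a, Cript, Ganab and Ylpm1. Mrps9, a mitochondrial ribosomal protein, had 1 count in its lowest library and 2416 CPM in library 14. Each of these 10 genes had a lowest count of 1 or 2, so they are in the core by the least margin. Ylpm1 had 8400 CPM in library 20 and at most 384 CPM in any other library. Its SD was 3.96, and 3.30 without library 20.

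Farthest below the trend were Pfn2 (1.87, 4.08 and 16.3 CPM), Grcc10, Rps9, Chchd2, Slc25a22, Marcksl1, Rpl37a-ps1, Rpl7a, LOC297756 and Ppp2ca, by 2.32 to 2.87. Pfn2 encodes the neuronal actin-binding profilin 2, and Marcksl1, a relative of the protein kinase C substrate MARCKS, lay at 9.01, 23.7 and 65.5 CPM. Apart from Marcksl1 they had medians of 1.45 to 8.55 CPM. They thus had a few counts in every library, where genes with a median below 10 CPM were at 0 in a median of 12 libraries. Whether reads of other copies of these genes contribute was not tested.

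**Figure D4:**
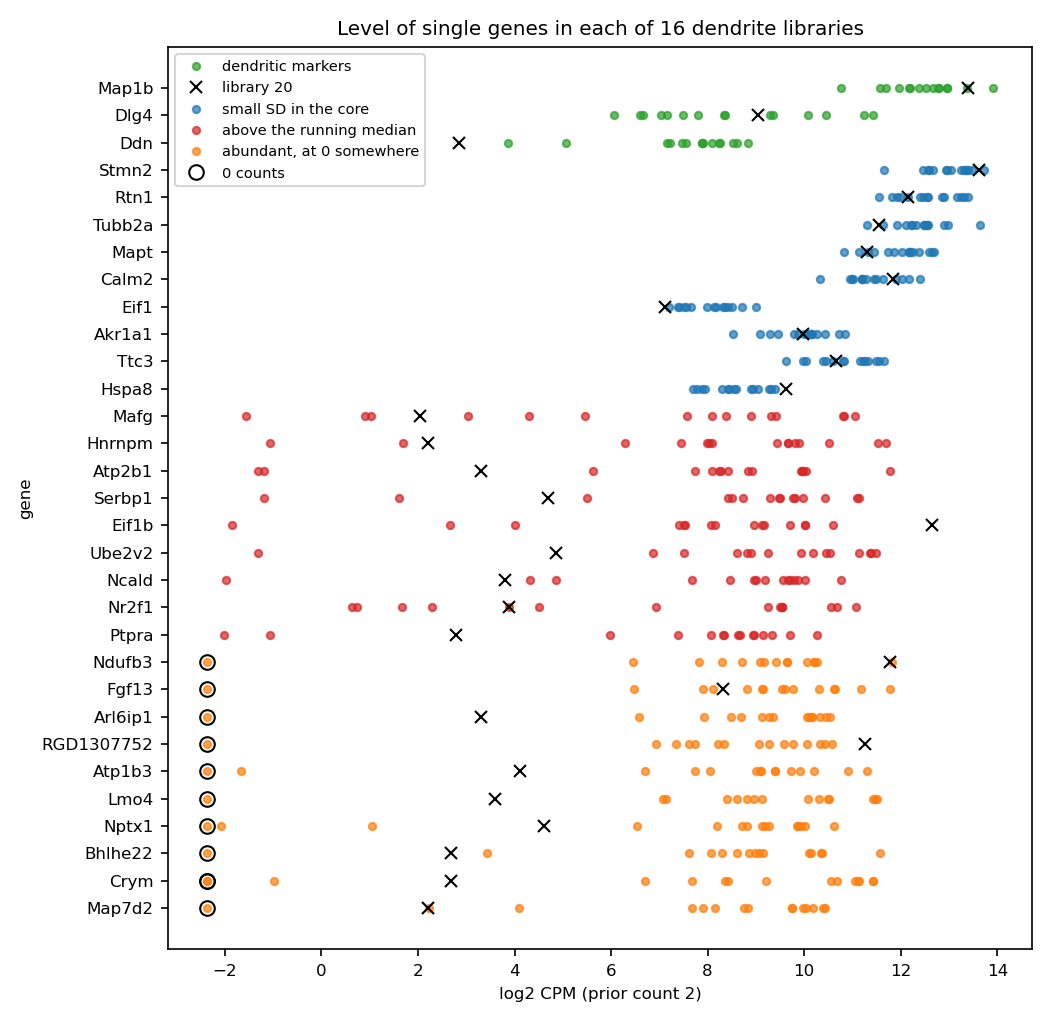
Level (log2 CPM, prior count 2) of single genes in each of the 16 dendrite libraries, with library 20 as a cross and libraries with 0 counts circled. The 9 genes of small spread lie within narrow bands, while those above the running median, such as Hnrnpm and Nr2f1, and those missing somewhere, such as Ndufb3, spread over a wide range with some libraries far below the rest.

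Abundant genes were also missing outright. Of the genes with a median of 100 CPM or more, 189 were at 0 in some library, 156 of them in 1, 25 in 2, 6 in 3 and 2 in 4. Library 14 lacked 104 of the 1171 genes at this level, library 15 43, library 22 22, library 18 19 and library 27 13. By the highest median, the missing genes were Ndufb3, Fgf13, Arl6ip1, RGD1307752, Atp1b3, Lmo4, Nptx1, Bhlhe22, Crym and Map7d2. Fgf13, an intracellular fibroblast growth factor homolog that binds sodium channels, had a median of 652 CPM and was at 0 in library 14. The sodium pump subunit Atp1b3 had a median of 547 CPM, reached 2534 CPM in library 23 and was at 0 in library 22. Crym, a thyroid hormone binding protein, had an SD of 5.05, a median of 467 CPM, a highest value of 2768 CPM in library 11 and 2 libraries at 0. Libraries 14, 15 and 18 had 12332484, 19263865 and 16923119 gene counts. A count of 0 allowed up to 0.243, 0.156 and 0.177 CPM in them. These floors cover counting error only, and why the genes were missing was not tested.

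A further set was high in some libraries and at 0 in others. Single spike-ins did the same. ERCC-00025 was at 0 in 15 libraries and had 3044 counts in the other, and ERCC-00095 was at 0 in 13 and reached 5474 counts. How much of the pattern in genes is technical was not tested. Of the 7268 genes with counts in 1 to 8 libraries, 940 reached 100 CPM somewhere. In library 25, the shallowest, 1 count was already 4.36 CPM. By the highest mean, the first of the genes at 0 in 8 or more libraries were Mob1a, Tes, Zfp26, Ppm1h, Dnajc24, Klf14, Inpp1, Upf2, Htr2c and Trhr. The place of Tes rested on library 20, where it had 2440 CPM, against at most 25.7 CPM in any other library. Its SD was 3.72, and 2.26 without library 20. Trhr, the receptor for thyrotropin-releasing hormone, was at 0 in 15 libraries and had 1228 CPM in library 18. Htr2c, a serotonin receptor, was at 0 in 8 and reached 1055 CPM in library 14, and Mob1a, a Hippo pathway adaptor, was at 0 in 13 and reached 1975 CPM in library 28.

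By class, the median distance from the trend was below 0 in 24 of the 37 lists. Under 5 scalings (library totals, TMM, DESeq2 size factors, and the first 2 of these without library 20), 19 lists were below 0 each time, 6 above 0 each time, and 12 had both signs. Among those below 0 each time were glycolysis (-0.49 ± 0.16), respiratory complex I (-0.46 ± 0.17), complexes II to V (-0.38 ± 0.14), ubiquitin and its enzymes (-0.36 ± 0.18) and the actin cytoskeleton (-0.26 ± 0.18). The large and small ribosomal subunits were at -0.58 ± 0.18 and -0.50 ± 0.13 with library totals, at 0.01 and 0.11 with TMM, at 0.10 and 0.21 with DESeq2 size factors, and at -0.52 and -0.42 with TMM without library 20. Their direction therefore turned on how library 20 was scaled. Farthest above 0 of the 6, with wide errors, were the intermediate filaments (0.34 ± 0.27), the dense core vesicle genes (0.24 ± 0.49) and the GABA receptor list (0.24 ± 0.27). The rest were RNA granule and transport proteins (0.12 ± 0.24), growth cone membrane proteins (0.07 ± 0.24), and splicing factors and hnRNPs (0.0004 ± 0.13). All of the 6 but the intermediate filaments lay within 1 SE of 0.

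**Figure D5:**
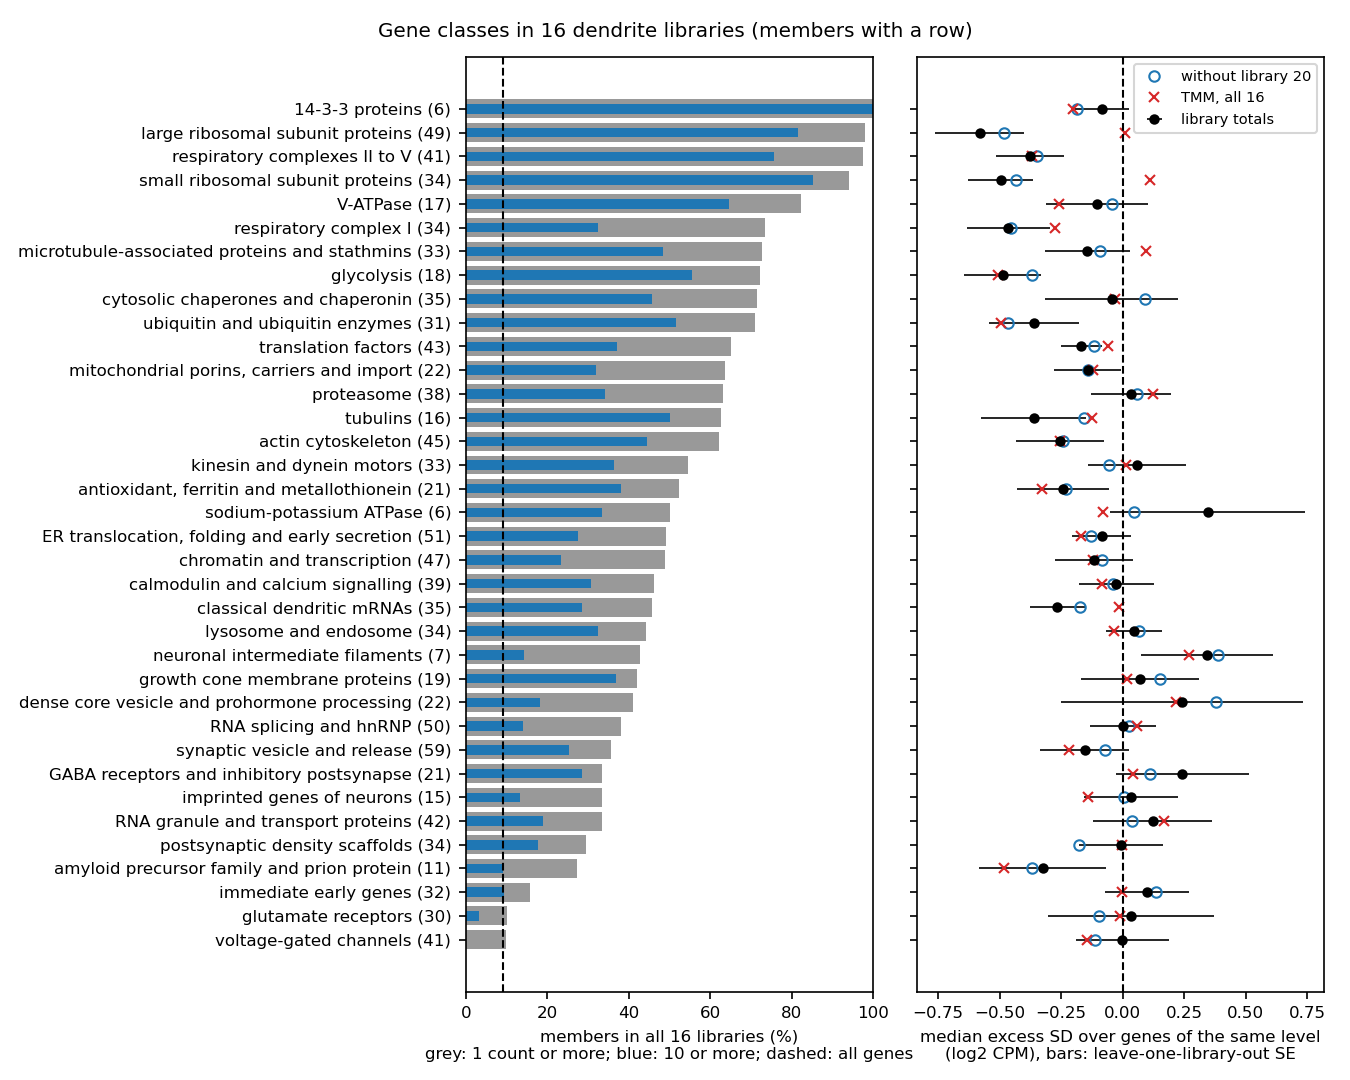
Left, percent of each class with 1 or more (grey) or 10 or more (blue) counts in all 16 dendrite libraries, with the number of members in brackets and the 9.01% of all gene rows as a dashed line (the long noncoding RNA list, of 3 genes, is not drawn). Right, the median over the class of the SD minus the running median at the same level, with leave-one-library-out SE. Ribosomal proteins lie below 0 with library totals and at or above 0 with TMM of all 16 libraries.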

How the data were processed

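The deposited files hold raw counts per gene symbol and per spike-in row, 1 file per library, per the file headers, and the genome build was rn6 per the submitters' processing notes. The aligner, annotation, counting tool, use of strand and handling of multi-mapped reads are not given in the sources used here, and no molecular identifiers are named, so intervals and floors cover counting error only. The 16 dendrite libraries were taken by their titles. The 92 spike-in rows were removed from the gene totals. CPM used each library's total gene counts, with no length correction. SDs used log2 CPM with a prior count of 2, as in edgeR 4.0.16 (R 4.3.3), over 16 libraries. Genes with a count in at least 8 libraries were set against a running median over 100 genes on either side in level. Standard errors are leave-one-library-out. The code was checked on simulated data. No test was made, because 1 group is described and no comparison enters. A library is 1 neuron.

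Alternatives were other count limits (5 and 10), thinning to 229149 counts, 1 CPM, TMM and DESeq2 1.42.0 size factors, prior counts of 0.5 and 5, narrower and wider running medians, other filters, and leaving out each library. Alternatives without library 20 together with another change were chosen after seeing the data. The members, gene lists and markers were chosen with earlier results of these data known. Genes to name were chosen from the 3 markers and the 20 core genes of highest median CPM. To these came the 10 at each end of the SD and of the distance from the running median. Further candidates were the 10 highest that were missing somewhere and the 10 of highest mean among those at 0 in 8 or more libraries. The leading, most variable and most often missing members of each list were also candidates. Others are named to account for list members. Malat1 and Meg3 were not analysed here. Many genes chosen in this way, Nnat, Gap43 and Gnas among them, are left out of the text. Promoter and gene names come from RefSeq tables of GRCr8.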

Additional observations from a re-analysis of the deposited data

How the results depend on the processing

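The number of genes present in every dendrite library was 1552, and became 962 at 5 counts, 755 at 10 counts, 995 at 1 CPM, 680 after thinning and 859 at 10 counts without library 20. Leaving out each library gave 1552 to 1832. The median over lists of the percent of members in the core was 49.0, and became 32.4 at 10 counts and 31.6 after thinning. The median SD over the core was 2.11, with 1.96 under TMM, 1.94 under DESeq2 size factors and 1.83 to 2.16 on leaving out each library. The median SD over the described genes was 3.21, and became 3.81 and 2.81 with prior counts of 0.5 and 5 and 2.30 with no filter, which adds genes at the prior count. On leaving out each library it was 3.12 to 3.26. The median SD of the spike-ins was 1.11, with 0.907 (without library 9) to 1.38 (without library 21). The number of lists below 0 was 24, with 20 for a running median over 51 genes and 23 for a wider one, and 23 to 27 on leaving out each library. Of 247 genes chosen for naming, the SD moved by more than its standard error in 64 under TMM and in 71 under DESeq2 size factors. It moved in 25 without library 20. The cause was not tested. No paired analysis was possible because 1 group is described and no result comes from a test. Depth limits detection in library 25, where a count of 0 allows up to 13.1 CPM, although the core without it was 1591 against 1669 without library 22 and 1679 without library 15, and amplified copies of 1 molecule cannot be told apart from separate molecules.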
